A study of Mus musculus with 30 samples.

Results

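The livers compared here came from mice whose growth hormone receptor was cut short at amino acid 391 or at amino acid 569. All liver arrays labelled 391 (3 arrays) were set against all liver arrays labelled 569 (3 arrays), which makes 6 of the 15 liver arrays and 6 of the 30 arrays of the series. The other liver groups, with 3 arrays each, carried a receptor mutated in its Box1 region, no receptor (KO) or a wild-type receptor (WT). The labels call the mutants transgenic, and every animal was a male of 4 months that had fasted overnight before it was killed, so the 569 and WT livers are fasted as well. The labels name no strain, promoter or number of founder lines. They do not state whether 1 animal was used per array, and the p-values below rest on the spread among arrays, part of which may be technical.

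As background, growth hormone acts on the liver through a receptor that holds the kinase JAK2 at its membrane-proximal Box1. Once the hormone binds, JAK2 phosphorylates tyrosines in the receptor's tail, and the transcription factor STAT5 docks there, is activated and moves to the nucleus. A receptor cut at amino acid 391 lacks more of the tail, and more of these tyrosines, than one cut at 569. In mice the liver is the main source of circulating IGF-I, and the pulsatile hormone of males sets which genes differ between male and female livers.

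Each deposited value is a ratio of a probe to its own median over the 15 liver arrays, so 1 is the middle of the 5 genotypes and no absolute level remains, also not for a check of the tissue by the level of its markers. Differences below are 391 minus 569 on the log2 scale of these ratios, with the standard error (SE) of a limma fit over all liver arrays and p-values adjusted over all 46643 probes. A probe or gene is called at an adjusted p under 0.05. Because the arrays are of whole liver, fewer cells of a type and less RNA per cell cannot be told apart. The 391 arrays shared a slide with KO, and the 569 arrays shared another with WT, so slide and genotype cannot be told apart in any 391 minus 569 value. The array medians lay between 0.98 and 1.01 and the SD of log2 ratios between 0.208 and 0.243 over the 6 arrays.

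Arrays 2 and 3 of the 391 group stood apart from the rest before any comparison was made. Of 22 measured genes for digestive enzymes and other products of pancreatic acinar cells, 0, 16 and 14 lay above a ratio of 2 on 391 arrays 1, 2 and 3, against 0 on each 569 array. The summed ratio of these genes was 21.73, 358.4 and 137.9 on the 391 arrays, against 20.94, 21.42 and 21.49 on the 569 arrays. Chymotrypsinogen (Ctrb1) had ratios of 0.81, 87.46 and 29.55 in 391 livers, against 0.94, 0.96 and 0.94 in 569 livers. Array 2 of the 391 group also carried skeletal muscle transcripts. Of 10 muscle genes, 7 lay above 2 there, with a summed ratio of 221.1, and the other 391 arrays summed to 10.17 and 9.81, against 9.4, 10.17 and 10.33 on the 569 arrays. Skeletal actin (Acta1) read 1.05, 70.63 and 0.97 in 391 livers, against 0.78, 0.97 and 1.05 in 569 livers. Results are therefore also given without 391 arrays 2 and 3, which leaves 391 array 1 alone in its group and assumes that it varies like the other groups. Where members of a list called in that fit are counted, the share over all genes in the same fit is not known here.

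**Figure D1:**
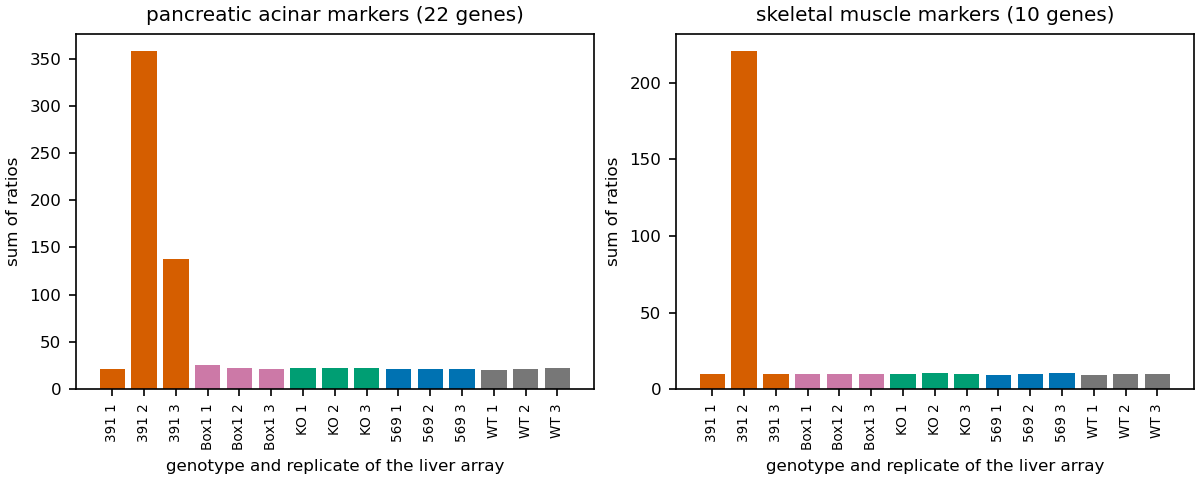
Summed ratios of the pancreatic acinar (left) and skeletal muscle (right) marker genes on each of the 15 liver arrays, with bars coloured by genotype and the axis starting at 0. The pancreatic sum is 358.4 and 137.9 on 391 arrays 2 and 3, and the muscle sum is 221.1 on 391 array 2, while the other arrays lie near the number of genes summed.

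In 391 livers, 2010 probes were higher (4.31% of all probes) and 180 were lower (0.386%) than in 569 livers, and 7696 had an unadjusted p under 0.05. With 1 probe a gene, 1273 of 19406 genes were higher (6.56%) and 105 were lower (0.541%). The rises were more numerous and the falls deeper. The median of the called rises was 0.61 and that of the called falls -0.78, and at 4-fold or more there were 23 higher and 30 lower probes. Of the 2190 called probes, 2140 had 391 and 569 arrays that did not overlap, as did 18% of all probes. The split depended on the scaling: 91.8% of called probes were higher as deposited, against 79% after quantile normalization, which gave 807 higher and 214 lower. Without 391 arrays 2 and 3 there were 2288 higher and 124 lower probes, of which 1160 and 81 were among those of the full comparison. Single arrays moved these counts too. Without 569 array 2, 600 were higher and 98 lower; without 569 array 3, 962 and 97; and without 391 array 1, 1022 and 133.

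**Figure D2:**
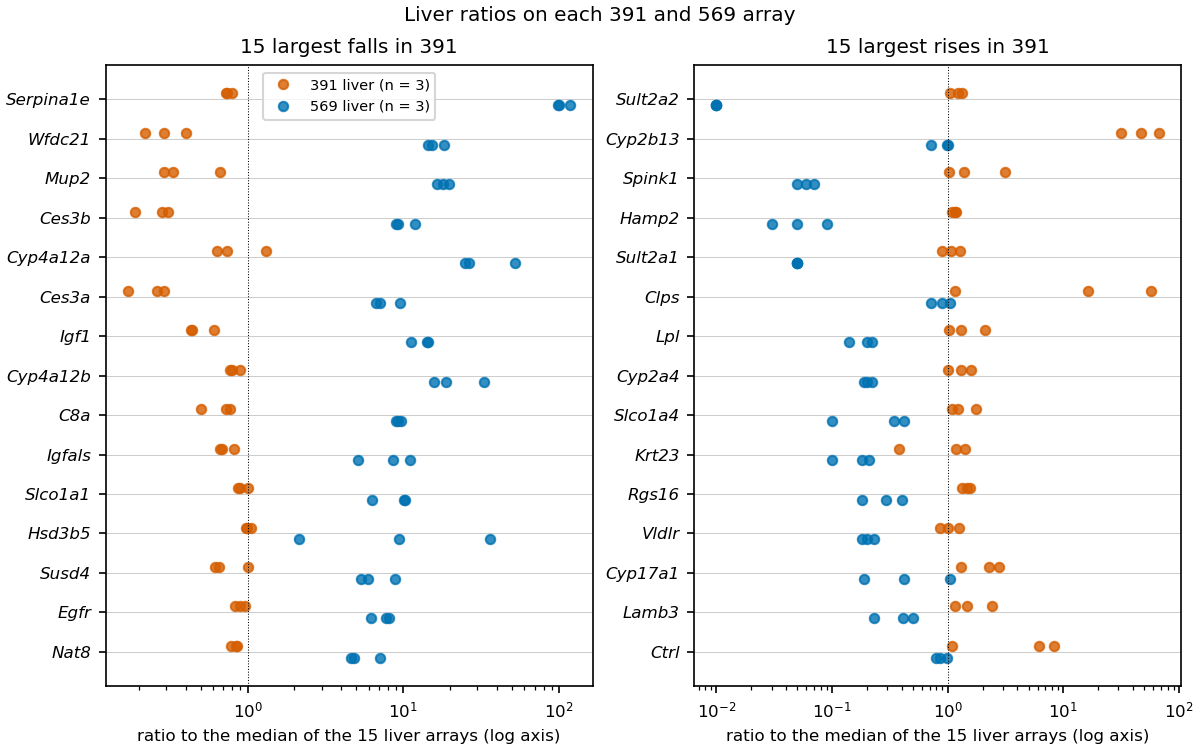
Ratios to the liver median (log axis) on each 391 array (orange) and 569 array (blue) for the 15 called genes with the largest fall (left) and the largest rise (right). The genes were taken from those whose 391 and 569 arrays do not overlap, and Clps and Ctrl are high on only 2 of the 391 arrays.

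The growth hormone axis was led by the falls of the genes that make the circulating IGF-I complex. Igf1, which encodes IGF-I, had ratios of 0.44, 0.43 and 0.61 in 391 livers, against 14.24, 14.44 and 11.24 in 569 livers. All 391 arrays were far below all 569 arrays, a 27.2-fold fall with a difference of -4.76 (SE 0.179, adjusted p = 4.9e-10), and a further Igf1 probe fell by 3.73. Igfals, the acid-labile subunit that holds IGF-I in its complex in plasma, read 0.69, 0.82 and 0.67 in 391 livers, against 5.1, 8.67 and 11.14 in 569 livers. It fell by 3.45 (SE 0.222, adjusted p = 3.8e-07), and the lowest 569 array was still above every 391 array. These calls held in each alternative that was run. Igfbp3, the main binding protein of that complex, read 1, 1 and 0.78 in 391 livers, against 0.98, 0.85 and 0.95 in 569 livers, an overlapping spread with a difference of -0.01 (SE 0.165, adjusted p = 0.99).

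Of 4 measured feedback inhibitors of the receptor, Socs2 and Cish were lower, with wider spread among the 569 arrays, while Socs1 differed by 0.13 and Socs3 by -0.10 and neither was called. Socs2, a suppressor of cytokine signalling, had ratios of 0.79, 0.83 and 0.57 in 391 livers, against 6.75, 2.1 and 3.21 in 569 livers. It fell by 2.31 (SE 0.431, adjusted p = 0.0072), with no overlap, and 2 further Socs2 probes differed by -0.06 and 0.21 and were not called. Cish, another inhibitor of this family, read 0.94, 0.86 and 0.83 in 391 livers, against 3.25, 1.41 and 5.03 in 569 livers. Its groups did not overlap, and it fell by 1.70 (SE 0.428, adjusted p = 0.034), but the call was lost on leaving out any one of 5 of the 6 arrays. Without 391 arrays 2 and 3 the adjusted p was 0.059 for Socs2 and 0.2 for Cish.

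The remaining members of the axis moved little or upward. Of 28 measured genes, 5 rose (against 6.56% of all genes) and 4 fell (against 0.541%), with a median of 0.15 where the median of all genes was 0.06. With 391 array 1 as the only 391 array, 6 rose and 2 fell. Stat5a, the STAT5 paralogue that is the minor form in liver, read 1.25, 1.06 and 1.61 in 391 livers, against 0.59, 0.63 and 0.88 in 569 livers, and rose by 0.90 (SE 0.163, adjusted p = 0.0063). Igf2r, the receptor that clears IGF-II, rose by 0.74 (SE 0.117, adjusted p = 0.003), and Igf2, encoding IGF-II, by 0.77 (SE 0.124, adjusted p = 0.0033). Igfbp2, an IGF-binding protein, read 1.41, 1 and 1 in 391 livers, against 0.8, 0.51 and 0.33 in 569 livers. It rose by 1.13 (SE 0.24, adjusted p = 0.015), a call that was lost without 391 array 1, 569 array 2 or 569 array 3. Igfbp1, a binding protein that rises with fasting, read 6.1, 1.72 and 1 in 391 livers, against 1.67, 0.33 and 0.08 in 569 livers, and with this overlap the difference of 2.63 was not called (SE 0.815, adjusted p = 0.086). The receptor gene itself, Ghr, read 0.68, 0.78 and 1.4 in 391 livers, against 0.95, 1 and 1.42 in 569 livers (-0.29, SE 0.23, adjusted p = 0.62). The position of the Ghr probes in the transcript is unknown here, so they do not check the labels.

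The letters TTCNNNGAA, the form to which STAT5 is known to bind, were searched in RefSeq promoter windows of build GRCm38.p6 that run from 250 bases before to 50 after a gene's start. This motif reads the same on both strands. It occurred in 1395 of 15526 genes with a window (8.98%), in 8 of 84 genes that were lower in 391 livers (9.52%) and in 76 of 1019 that were higher (7.46%). Among the always-named genes and the 30 largest changes, 25 have a window in the table and 4 of these hold the motif: Igfals, Cish, C8a and Hamp2. Their sequences are shown because they place the motif beside genes that moved in both directions. Capitals mark the motif, and each upstream stretch ends at the base before the start. For Igfals, where 2 of 3 windows hold it, the stretch before 1 of the annotated starts is shown, at chr17:24877981-24878230 on the plus strand. For Cish a short site around the start is shown, chr9:107296656-107296681 on the plus strand, where the motif occurs 2 times. The C8a stretch is chr4:104876399-104876648 on the minus strand, and the Hamp2 stretch chr7:30924182-30924431 on the minus strand.
Igfals: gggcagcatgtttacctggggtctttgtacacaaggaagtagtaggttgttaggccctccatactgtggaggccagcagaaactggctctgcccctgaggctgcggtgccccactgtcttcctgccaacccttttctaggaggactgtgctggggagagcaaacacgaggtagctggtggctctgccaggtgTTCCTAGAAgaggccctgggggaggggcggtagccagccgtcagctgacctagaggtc
Cish: gttTTCCTGGAAagTTCTTGGAAatc
C8a: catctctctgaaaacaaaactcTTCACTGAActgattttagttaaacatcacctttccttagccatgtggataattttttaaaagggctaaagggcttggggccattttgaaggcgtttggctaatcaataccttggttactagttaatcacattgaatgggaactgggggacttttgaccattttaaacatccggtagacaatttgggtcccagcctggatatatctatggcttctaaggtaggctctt
Hamp2: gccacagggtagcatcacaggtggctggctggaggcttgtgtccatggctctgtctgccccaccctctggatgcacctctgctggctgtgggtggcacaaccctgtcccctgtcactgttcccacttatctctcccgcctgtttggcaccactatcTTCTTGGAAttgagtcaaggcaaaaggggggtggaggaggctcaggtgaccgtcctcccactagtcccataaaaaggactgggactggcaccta
A match in these letters is a description of the sequence, and no binding was measured.

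Genes that are normally more active in male than in female liver fell as a group. Of 24 measured male-biased genes, 16 fell (against 0.541% of all genes) and 1 rose, with a median of -2.16, and 21 lay below 0. Their summed ratio was 20.87, 19.91 and 19.36 in 391 livers, against 240.1, 236.1 and 313.2 in 569 livers. Serpina1e, an alpha-1-antitrypsin-type protease inhibitor, made the largest fall of all genes: 0.73, 0.8 and 0.74 in 391 livers, against 119.1, 99.29 and 100.2 in 569 livers, which is 140-fold lower (-7.13, SE 0.16, adjusted p = 5.8e-13). A further Serpina1e probe differed by -0.14 and was not called. Mup2, a major urinary protein that carries pheromones, read 0.67, 0.33 and 0.29 in 391 livers, against 19.85, 16.61 and 18.02 in 569 livers (-5.50, SE 0.331, adjusted p = 1.7e-07). The Mup, Serpina1, Cyp4a12, Ces3, Sult2a, Cyp2a and Cyp2b families hold near-identical copies that may share a probe, so which copy was measured is uncertain.

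The enzymes and transporters of the male set fell over a wide range. Cyp4a12a, a fatty acid and arachidonic acid hydroxylase, read 0.64, 1.32 and 0.74 in 391 livers, against 24.98, 26.71 and 52.3 in 569 livers (-5.26, SE 0.319, adjusted p = 1.8e-07), and its neighbour Cyp4a12b fell by 4.71. Slco1a1, an organic anion transporter, had ratios of 1, 0.87 and 0.89 in 391 livers, against 6.31, 10.28 and 10.12 in 569 livers (-3.24, SE 0.164, adjusted p = 2.1e-08). A further Slco1a1 probe differed by -0.19 and was not called. Cyp7b1, an oxysterol hydroxylase of bile acid synthesis, read 0.83, 0.55 and 1 in 391 livers, against 3.22, 3.99 and 5.31 in 569 livers (-2.41, SE 0.294, adjusted p = 0.00044). On the probes that represent these genes every 391 array lay below every 569 array. For Cyp4a12a, Cyp4a12b and Slco1a1 the rule for the largest falls required this, and 18% of all probes did not overlap. Egfr, the epidermal growth factor receptor, fell by 3.03 (SE 0.181, adjusted p = 1.7e-07), Susd4, a complement regulator, by 3.14 (SE 0.205, adjusted p = 4.2e-07), and Nat8, an acetyltransferase that was not on the male list, by 2.72 (SE 0.192, adjusted p = 1.1e-06). Of 4 further Egfr probes, 3 also fell, by 0.99 to 3.58.

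Not all male-biased genes moved alike. Hsd3b5, a steroid-metabolizing enzyme, read 0.99, 0.98 and 1.06 in 391 livers, against 2.14, 9.43 and 36.37 in 569 livers, so its fall of 3.16 (SE 0.723, adjusted p = 0.021) rested on 569 arrays that differed widely among themselves. The call was lost without 391 array 1, 569 array 2 or 569 array 3. Csad, which makes hypotaurine on the way to taurine, read 0.66, 0.57 and 0.6 in 391 livers, against 1.58, 0.92 and 1.74 in 569 livers (-1.16, SE 0.291, adjusted p = 0.033) and lost its call in 5 of the 6 fits that left out 1 array. The single rise was that of Selenbp2, a selenium-binding protein named after its values were seen, with 1.47, 1.01 and 1.08 in 391 livers, against 0.56, 0.54 and 0.99 in 569 livers (0.81, SE 0.202, adjusted p = 0.033). Without 391 arrays 2 and 3, 13 male-biased genes fell and 1 rose.

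The carboxylesterases Ces3a and Ces3b and a whey-acidic-protein family member were among the deepest falls, while Ces1d, Ces1f and Ces1g, other carboxylesterases, differed by 0.35, -0.74 and 0.29 and were not called. Ces3b, a liver carboxylesterase, read 0.19, 0.28 and 0.31 in 391 livers, against 8.99, 9.34 and 11.96 in 569 livers (-5.30, SE 0.306, adjusted p = 1.1e-07). Ces3a, which lies in the same family, read 0.17, 0.26 and 0.29 in 391 livers, against 6.71, 7.15 and 9.49 in 569 livers (-5.04, SE 0.341, adjusted p = 6.8e-07). Wfdc21 read 0.29, 0.4 and 0.22 in 391 livers, against 18.21, 15.23 and 14.46 in 569 livers (-5.75, SE 0.476, adjusted p = 7.9e-06). For Ces3a and Ces3b the 391 livers were also lower than the KO livers on the same slide, where Ces3b read 1.52, 0.59 and 1 (391 minus KO of -1.92, adjusted p = 0.024) and Ces3a 1.79, 0.5 and 1 (-2.04, adjusted p = 0.027).

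Among complement genes, 4 that encode parts of the membrane attack complex fell. This complex is the pore that complement inserts into target membranes, and the liver makes its plasma components. Of 32 measured complement and coagulation genes, 7 fell (against 0.541% of all genes) and 0 rose (2 with an unadjusted p under 0.05), with a median of -0.15. C8a, the alpha chain of component C8, read 0.5, 0.77 and 0.73 in 391 livers, against 9.24, 8.97 and 9.73 in 569 livers (-3.83, SE 0.184, adjusted p = 1.1e-08). C8b, its beta chain, read 0.43, 0.5 and 0.7 in 391 livers, against 2.8, 2.63 and 3.53 in 569 livers (-2.48, SE 0.2, adjusted p = 5.9e-06). C6 fell by 2.48 (SE 0.248, adjusted p = 6.8e-05) and C9 by 1.83 (SE 0.223, adjusted p = 0.00044). Hc, which encodes component C5, differed by -0.22 and C8g, the gamma chain of C8, by 0.12, and neither was called. In the 4 called genes the 391 and 569 arrays did not overlap, as was so for 2140 of the 2190 called probes and for 18% of all probes. For C8a the rule for the largest falls required this. A further C6 probe differed by -0.09 and was not called. Mbl1, a mannose-binding lectin of the initiating arm, fell by 0.74 (SE 0.136, adjusted p = 0.0066). The counts were again 7 and 0 without 391 arrays 2 and 3.

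Genes that are normally more active in female liver supplied the largest rises. Of 39 measured, 11 rose (against 6.56% of all genes) and 1 fell, with a median of 0.39, and 32 lay above 0. Sult2a2, a sulfotransferase of bile acids and steroids, read 1.33, 1.22 and 1.05 in 391 livers, against the lowest printed ratio of 0.01 in each 569 liver. Since 0.01 can stand for any ratio below 0.015, that value was used for 569, and Sult2a2 was at least 79.6-fold higher in 391 livers (a difference of at least 6.31, adjusted p = 1.1e-15). Sult2a1, of the same family, read 1.27, 0.9 and 1.07 in 391 livers, against 0.05, 0.05 and 0.05 in 569 livers (4.42, SE 0.126, adjusted p = 1.3e-11). Cyp2b13, a female-specific cytochrome, read 67.35, 31.63 and 46.73 in 391 livers, against 0.98, 1 and 0.72 in 569 livers (5.70, SE 1.17, adjusted p = 0.012). Its adjusted p was 0.052 without 569 array 2, and KO livers, which enter the pooled error of the fit, read 0.78, 0.71 and 77.18.

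Hamp2, a paralogue of the iron hormone hepcidin, read 1.16, 1.1 and 1.17 in 391 livers, against 0.05, 0.03 and 0.09 in 569 livers (4.48, SE 0.368, adjusted p = 7.4e-06). Cyp2a4, a steroid hydroxylase, rose by 2.66 (SE 0.265, adjusted p = 6.8e-05), with 1.6, 1.31 and 1 in 391 livers, against 0.22, 0.2 and 0.19 in 569 livers. Cyp17a1, a steroidogenic cytochrome, rose by 2.22 (SE 0.489, adjusted p = 0.018), and its call was lost in 4 of the 6 fits that left out 1 array. Spink1, a trypsin inhibitor that the pancreas also makes in quantity, read 1.03, 3.11 and 1.37 in 391 livers, against 0.07, 0.05 and 0.06 in 569 livers (4.78, SE 0.345, adjusted p = 1.4e-06). It was highest on 391 array 2, which carried the most pancreatic transcripts, and on 391 array 1 alone, which carried none above a ratio of 2, the difference was 4.12 (adjusted p = 4e-05). The single fall, named after its values were seen, was that of the lung- and liver-expressed cytochrome Cyp2f2 (-0.80, SE 0.162, adjusted p = 0.012). Leaving out 391 arrays 2 and 3, 9 female-biased genes rose and 0 fell.

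Of 15 measured transcription factors tied to sex differences in liver, 2 rose (against 6.56% of all genes) and 0 fell (0 with an unadjusted p under 0.05), with a median of 0.19. Nr1i2, the pregnane X receptor, read 1.28, 1.35 and 1.16 in 391 livers, against 0.97, 0.74 and 0.64 in 569 livers (0.71, SE 0.12, adjusted p = 0.0044). Tox, a high-mobility-group factor with a female bias, read 1.8, 1.19 and 0.87 in 391 livers, against 0.68, 0.39 and 0.44 in 569 livers (1.33, SE 0.279, adjusted p = 0.013), a call lost in 3 of the 6 fits that left out 1 array. In the fit without 391 arrays 2 and 3, the median of the 15 was 0.56. Bcl6, a male-biased repressor that STAT5 holds down, read 1.22, 0.72 and 1.38 in 391 livers, against 0.4, 1.14 and 0.39 in 569 livers. Array 2 of each group broke the pattern, and the difference of 0.92 was not called (SE 0.358, adjusted p = 0.19).

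**Figure D3:**
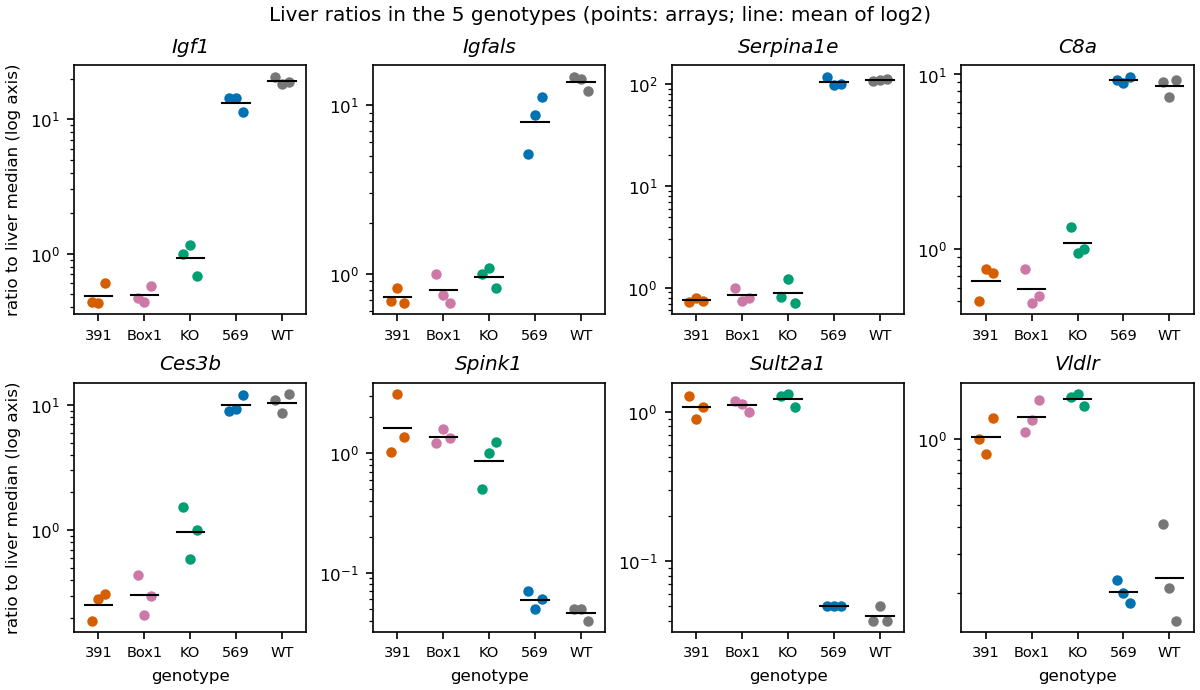
Ratios to the liver median (log axis) of 8 genes on the 3 arrays of each genotype, with a line at the mean of log2. For Serpina1e, C8a and Sult2a1 the 569 arrays lie with WT and the 391 arrays with Box1 and KO, while for Igfals the 569 mean lies between 391 and WT.

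Of 27 measured genes of lipid uptake and storage, 6 rose (against 6.56% of all genes) and 0 fell (0 with an unadjusted p under 0.05), with a median of 0.44, and 23 lay above 0. Lpl, the lipoprotein lipase that frees fatty acids from circulating triglyceride, read 1.03, 1.3 and 2.1 in 391 livers, against 0.2, 0.14 and 0.22 in 569 livers (2.94, SE 0.283, adjusted p = 4.7e-05). Vldlr, a receptor for triglyceride-rich lipoproteins, read 1, 0.86 and 1.25 in 391 livers, against 0.23, 0.2 and 0.18 in 569 livers (2.34, SE 0.26, adjusted p = 0.00019). Both were clear of the 569 arrays on every array, which the rule for the largest rises required. However, 2 further Lpl probes differed by -0.01 and 0.06, and of 4 further Vldlr probes 1 was called, with a rise of 1.48. Pparg, a regulator of fat storage, read 1.31, 1 and 0.99 in 391 livers, against 0.42, 0.5 and 0.71 in 569 livers (1.04, SE 0.169, adjusted p = 0.0035). Dgat1, which completes triglyceride, rose by 0.71 (SE 0.121, adjusted p = 0.0045), and Cideb, a lipid droplet protein, by 0.57 (SE 0.126, adjusted p = 0.018, lost in 4 of the 6 fits without 1 array). With 391 arrays 2 and 3 left out, the median of the list was 0.58.

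Fatty acid synthesis and oxidation genes were called higher at shares near the 6.56% of all genes. Of 21 synthesis genes 2 rose and 0 fell (10 higher and 0 lower with an unadjusted p under 0.05). Their median was 0.46, where that of all genes was 0.06, and 18 lay above 0. Acaca, the rate-limiting carboxylase, read 1.26, 1.36 and 1.56 in 391 livers, against 0.62, 0.57 and 0.72 in 569 livers (1.13, SE 0.156, adjusted p = 0.0011), though 3 further probes of it differed by -0.13 to 0.05. Acly, which supplies cytosolic acetyl-CoA, rose by 0.54 (SE 0.126, adjusted p = 0.022) and lost its call in 3 of the 6 fits without 1 array. Of 30 oxidation and ketogenesis genes 2 rose and 0 fell (15 higher and 0 lower with an unadjusted p under 0.05). Their median was 0.38, and 28 lay above 0. The called rises were those of Etfb, an electron carrier of fatty acid oxidation (0.80, SE 0.154, adjusted p = 0.0087), and Echs1, a hydratase of the cycle (0.60, SE 0.121, adjusted p = 0.011). The call of Echs1 was lost in 3 of the 6 fits without 1 array. Without 391 arrays 2 and 3 the medians were 0.74 for the oxidation genes and 0.41 for the synthesis genes. The oxidation median thus rested on which 391 arrays entered.

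About as many respiratory chain and ribosomal genes were called higher as were not, and their differences stayed below 1 on the log2 scale. Of 57 measured oxidative phosphorylation genes, 28 rose (against 6.56% of all genes) and 0 fell (0 with an unadjusted p under 0.05), with a median of 0.53 and a range of -0.18 to 0.97. Ndufb7, a complex I subunit, read 1.22, 1.26 and 1.19 in 391 livers, against 0.62, 0.65 and 0.63 in 569 livers (0.95, SE 0.125, adjusted p = 0.00082). Cox4i1, a cytochrome oxidase subunit, read 1.21, 1.15 and 1.12 in 391 livers, against 0.89, 0.76 and 0.74 in 569 livers (0.55, SE 0.0919, adjusted p = 0.0043). Ndufv1, Uqcrc1 and Atp5g1, subunits of complex I, complex III and the ATP synthase, rose by 0.86, 0.74 and 0.90. Of 49 measured cytosolic ribosomal protein genes, 25 rose and 0 fell (0 with an unadjusted p under 0.05), with a median of 0.47 and a range of -0.18 to 0.90. Rpl10a read 1.26, 1 and 1.23 in 391 livers, against 0.77, 0.71 and 0.71 in 569 livers (0.67, SE 0.101, adjusted p = 0.0022), and Rps15, Rpl3, Rps27 and Rpl13 rose by 0.56 to 0.90.

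The counts of both lists depended on the scaling, as did the counts over all probes. After quantile normalization 17 respiratory chain genes and 13 ribosomal genes rose, with medians of 0.35 and 0.32. Over all probes the higher calls went from 2010 to 807. Without 391 arrays 2 and 3 the list medians were 0.69 and 0.57. The median log2 ratio of the respiratory chain list was 0.32, 0.00 and 0.04 on the 391 arrays, against -0.20, -0.49 and -0.36 on the 569 arrays, so the groups did not overlap. On the WT arrays it was 0.00, -0.47 and -0.20, which reaches the lowest 391 array. For the ribosomal list the medians were 0.26, 0.04 and 0.14 on the 391 arrays, against -0.01, -0.43 and -0.38 on the 569 arrays, and -0.01, -0.18 and -0.09 on the WT arrays.

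**Figure D4:**
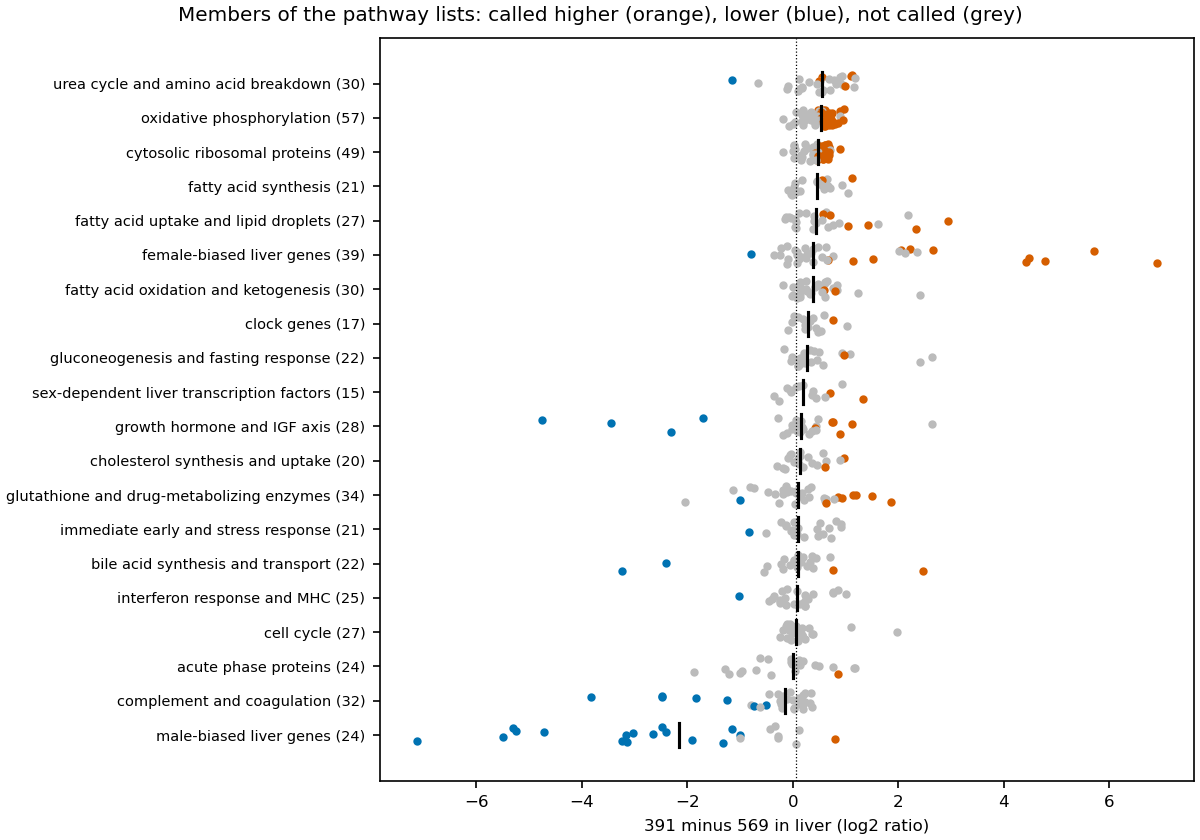
Differences between 391 and 569 livers (log2 ratio) for every measured member of the 20 pathway lists, ordered by median, with the number measured in brackets; black bars are list medians and the dotted line is the median of all genes (0.06). Sult2a2 is drawn at its fitted 6.90, which is no bound. The male-biased list is shifted to the left with a median of -2.16, while the respiratory chain and ribosomal lists form narrow groups above 0.

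Of 30 urea cycle and amino acid breakdown genes, 5 rose (against 6.56% of all genes) and 1 fell (against 0.541%), the fall being Csad, with a median of 0.55. Hpd, of tyrosine breakdown, read 1.52, 1.15 and 1.78 in 391 livers, against 0.92, 0.79 and 0.54 in 569 livers (0.996, SE 0.188, adjusted p = 0.0077). Arg1 and Ass1, both of the urea cycle, were higher by 1.13 (SE 0.294, adjusted p = 0.04) and by 1.10 (SE 0.289, adjusted p = 0.041), and each lost its call in 4 of the 6 fits without 1 array. After quantile normalization 1 gene of this list was called higher and 0 lower, while the higher calls over all probes went from 2010 to 807. Of 34 glutathione and drug-metabolizing enzymes, 7 rose (against 6.56% of all genes) and 1 fell (against 0.541%), with a median of 0.09. Gsta4, a transferase that removes lipid aldehydes, read 1.03, 1.16 and 1.19 in 391 livers, against 0.29, 0.39 and 0.55 in 569 livers (1.51, SE 0.212, adjusted p = 0.0013), and Gstt3 rose by 1.85 (SE 0.267, adjusted p = 0.0015). The fall, named after its values were seen, was that of Gstp1, another transferase, with 1, 0.78 and 0.47 in 391 livers, against 1.45, 1.26 and 1.61 in 569 livers (adjusted p = 0.042). The median of this list was 0.30 without 391 arrays 2 and 3. After quantile normalization, with the same drop in higher calls over all probes, 2 of its genes were higher and 1 lower. Of 22 bile acid genes, 2 rose, a share near the 6.56% of all genes, and 2 fell (against 0.541%). The falls were those of Slco1a1 and Cyp7b1. The rises were those of Slco1a4, an organic anion transporter (2.47, SE 0.486, adjusted p = 0.0096), and Slc51b, a subunit of the bile acid exporter (0.76, SE 0.14, adjusted p = 0.0068). Of 20 cholesterol genes, a share near that of all genes was called: Hsd17b7 and Srebf2 rose by 0.98 and 0.60 and 0 fell (0 with an unadjusted p under 0.05), and both calls were lost without 391 array 1, without 569 array 2 and after quantile normalization.

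Fasting, stress and acute-phase genes varied from array to array within both groups. Pdk4, a kinase that spares glucose in fasting, read 7.91, 5.2 and 0.91 in 391 livers, against 1.99, 0.6 and 0.21 in 569 livers, an overlapping spread with a difference of 2.41 (SE 0.793, adjusted p = 0.11). Egr1, an immediate early factor, read 4.35, 0.55 and 2.04 in 391 livers, against 1, 1 and 0.73 in 569 livers (0.91, SE 0.55, adjusted p = 0.46). Array 1 of the 391 group was the highest of the 6 in both. Saa2, serum amyloid A, read 1.13, 2.76 and 0.32 in 391 livers, against 7.78, 6.98 and 0.89 in 569 livers (-1.87, SE 1.03, adjusted p = 0.41). The called shares of the fasting and acute-phase lists lay below the 6.56% of all genes called higher. Of 22 gluconeogenesis and fasting genes 1 rose, Gpt, which turns alanine into pyruvate (0.97, SE 0.134, adjusted p = 0.0012). Of 24 acute-phase genes 1 rose, Serpina3n (0.86, SE 0.224, adjusted p = 0.04), and of 21 immediate early and stress genes 1 fell, Hspa5, the chaperone of the endoplasmic reticulum (-0.83, SE 0.155, adjusted p = 0.007). Serpina3n lost its call in 4 of the 6 fits without 1 array, and Hspa5 lost its call without 391 arrays 2 and 3. That fit keeps 391 array 1, where 8 of the 21 immediate early and stress genes lay above a ratio of 2. On 391 arrays 2 and 3 these numbered 1 and 2, and on the 569 arrays 1, 1 and 0.

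Other genes among the 15 largest rises fell outside these lists. Krt23, a keratin, read 1.19, 0.38 and 1.41 in 391 livers, against 0.21, 0.18 and 0.1 in 569 livers (2.47, SE 0.378, adjusted p = 0.0023). Rgs16, a brake on G-protein signalling, read 1.56, 1.48 and 1.34 in 391 livers, against 0.18, 0.4 and 0.29 in 569 livers (2.40, SE 0.481, adjusted p = 0.01). Lamb3, a laminin chain, read 2.4, 1.48 and 1.16 in 391 livers, against 0.41, 0.5 and 0.23 in 569 livers (2.15, SE 0.369, adjusted p = 0.0047). None of these 3 overlapped between the groups, which the rule for the largest rises required. The call of Rgs16 was lost without 391 arrays 2 and 3. Clps and Ctrl, a colipase and a protease of the pancreas, also met the rule for the largest rises, with 3.55 and 2.13. On 391 array 1 alone they differed from 569 livers by 0.40 (adjusted p = 0.49) and 0.32 (adjusted p = 0.39). Of the 22 pancreatic genes, 7 were called higher with all arrays and 1 without 391 arrays 2 and 3.

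The step between the truncations was set beside the step between 569 and WT livers, which shared a slide. In that comparison 4 probes were called (0.00858% of all probes), all 4 lower in 569 livers, and 3268 had an unadjusted p under 0.05. Both comparisons use the 569 arrays. The 391 minus 569 step differed from the 569 minus WT step for 421 probes (0.903%), 378 with the more positive and 43 with the more negative step in 391 minus 569. Serpina1e had 391 minus 569 of -7.13 and 569 minus WT of -0.05, and the difference of the steps was called (adjusted p = 2.2e-09). The same held for Igf1 (-4.76 and -0.55, adjusted p = 6.4e-06), for C8a (-3.83 and 0.12, adjusted p = 1.7e-05) and for Sult2a1 (4.42 and 0.21, adjusted p = 8.6e-08). Igfals, with 14.71, 14.27 and 12.01 in WT livers, had steps of -3.45 and -0.79 (adjusted p = 0.0057), and Slco1a1 had -3.24 and -0.88 (adjusted p = 0.0017). Serpina1e, C8a, Sult2a1 and Slco1a1 were named for their 391 minus 569 difference, and Serpina1e and Sult2a1 also for the step contrast. Since that difference is part of the step contrast, their calls in it are no separate support. For Socs2 (-2.31 and -0.63) and Cish (-1.70 and -0.23) the difference of the steps was not called (adjusted p = 0.36 and 0.44).

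Opposite signs in the 2 steps, which both use the 569 arrays, were not particular to a few genes. The respiratory chain list had medians of 0.53 for 391 minus 569 and -0.14 for 569 minus WT. For the ribosomal list they were 0.47 and -0.19. Kyat3, a kynurenine aminotransferase, read 1.08, 1 and 0.77 in 391 livers, against 0.47, 0.48 and 0.33 in 569 livers, and 1.75, 5.25 and 2.68 in WT livers. It fell by 2.79 in 569 against WT livers (adjusted p = 0.011), and its 391 minus 569 difference of 1.16 was not called (SE 0.326, adjusted p = 0.057), while a further Kyat3 probe rose by 0.97 (adjusted p = 0.041). The 4 called probes of 569 against WT were these 2 and, named after their values were seen, 1 each of Uhrf1bp1l and Wnk4. The Uhrf1bp1l probe read 1.04, 1.14 and 1 in 391 livers, against 0.72, 0.65 and 0.64 in 569 livers, and 1.21, 1.04 and 0.96 in WT livers. It was called in both steps, with 0.66 for 391 minus 569 (adjusted p = 0.0015) and -0.67 for 569 minus WT (adjusted p = 0.042), while the probe that represents this gene in the counts over genes differed by 0.37 between 391 and 569 livers and was not called. Wnk4, a kinase that regulates salt transport, differed by 0.11 between 391 and 569 livers (adjusted p = 0.6) and by -0.64 between 569 and WT livers (adjusted p = 0.021). The number of probes whose steps differ rested heavily on single arrays and on scaling: 32 without 569 array 2, 125 without 569 array 3, 155 without WT array 1, 65 after quantile normalization, 747 without 391 array 2, 754 without 569 array 1, and 1130 without 391 arrays 2 and 3.

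The calls were also compared with those of Box1 against WT, which share no array with 391 against 569, although 569 and WT share a slide. In separate fits of 6 arrays, 391 against 569 gave 462 higher and 76 lower probes, and Box1 against WT gave 936 higher (2.01% of all probes) and 174 lower (0.373%). The 2 comparisons shared 55 lower probes, which is 72.4% of those lower in 391 and 31.6% of those lower in Box1. They shared 135 higher probes, 29.2% of those higher in 391 and 14.4% of those higher in Box1, and 1 probe was called in opposite directions. Box1 livers read 1, 0.75 and 0.8 for Serpina1e, 0.77, 0.49 and 0.54 for C8a, and 1.18, 1.13 and 1 for Sult2a1, values close to those of the 391 livers. KO livers read 0.81, 1.23 and 0.71 for Serpina1e, 1.34, 0.95 and 1 for C8a, and 1.28, 1.31 and 1.07 for Sult2a1.

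The same contrast was drawn in subcutaneous fat of the same genotypes, where 391 and 569 again lay on different slides. With 1 probe a gene, 2.04% of genes were higher and 0.737% were lower in 391 than in 569 fat. These shares come from a fit of all 30 arrays, and the liver shares above from the 15 liver arrays. The liver and fat differences were themselves different for 303 probes (0.65%), 218 with the more positive and 85 with the more negative difference in liver. A ratio near 1 in fat may belong to a steady or to an absent transcript, since these ratios hold no level. Igf1 in fat read 1.04, 0.91 and 1.02 in 391, against 4.46, 4.02 and 0.34 in 569, where array 3 of the 569 group broke the pattern. That array stood apart from the other fat arrays, with an SD of log2 ratios of 0.737 against 0.205 to 0.336. The liver minus fat difference for Igf1 was -3.88 (SE 0.773, adjusted p = 0.019), and -2.66 without that array (adjusted p = 2.1e-05). Igfals was lower in 391 fat as well, with 1.31, 1 and 0.84 in 391, against 2.69, 2.59 and 1.67 in 569 (-1.13, adjusted p = 0.031), and fell by more in liver (liver minus fat of -2.31, adjusted p = 0.0027).

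The remaining genes described in fat differed from one another. Serpina1e and Susd4 were named for their falls in liver, which are part of the liver minus fat difference. Serpina1e read 1.05, 1 and 0.82 in 391 fat, against 0.71, 0.8 and 0.78 in 569 fat, and the liver minus fat difference was -7.45 (SE 0.371, adjusted p = 2.7e-11). Susd4 rose in fat, with 1.6, 1.36 and 1.17 in 391, against 0.66, 0.75 and 0.55 in 569 (1.07, adjusted p = 0.011), where it fell in liver, and the liver minus fat difference was -4.22 (SE 0.282, adjusted p = 2.5e-09). Cish read 1.34, 0.79 and 0.71 in 391 fat, against 5.93, 2.36 and 3.48 in 569 fat, with no overlap; the difference of -2.01 was not called (adjusted p = 0.052), and its liver minus fat difference was 0.31 (SE 0.776, adjusted p = 0.93). The respiratory chain list had a median of -0.44 in fat, with 0 of 57 genes called in either direction. That median includes fat 569 array 3. Without fat 569 array 3 the liver minus fat difference went from 1.37 to 0.94 for Ndufb7 and from 1.10 to 0.65 for Uqcrc1. It went from 2.61 to 1.71 for Atp5g1, from 1.15 to 0.98 for Ndufv1 and from 0.95 to 0.92 for Cox4i1. The skeletal muscle markers had a median of -0.81 in the same fat contrast, and the cause of these values was not tested. The number of probes whose liver and fat differences differ was 101 without liver 569 array 2, 123 without liver 569 array 3, 163 without liver 391 array 1, 154 without fat 391 array 3, 164 without fat 569 array 1, 1331 without fat 569 array 2 and 834 without fat 569 array 3, which kept 276 of the 303.

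**Figure D5:**
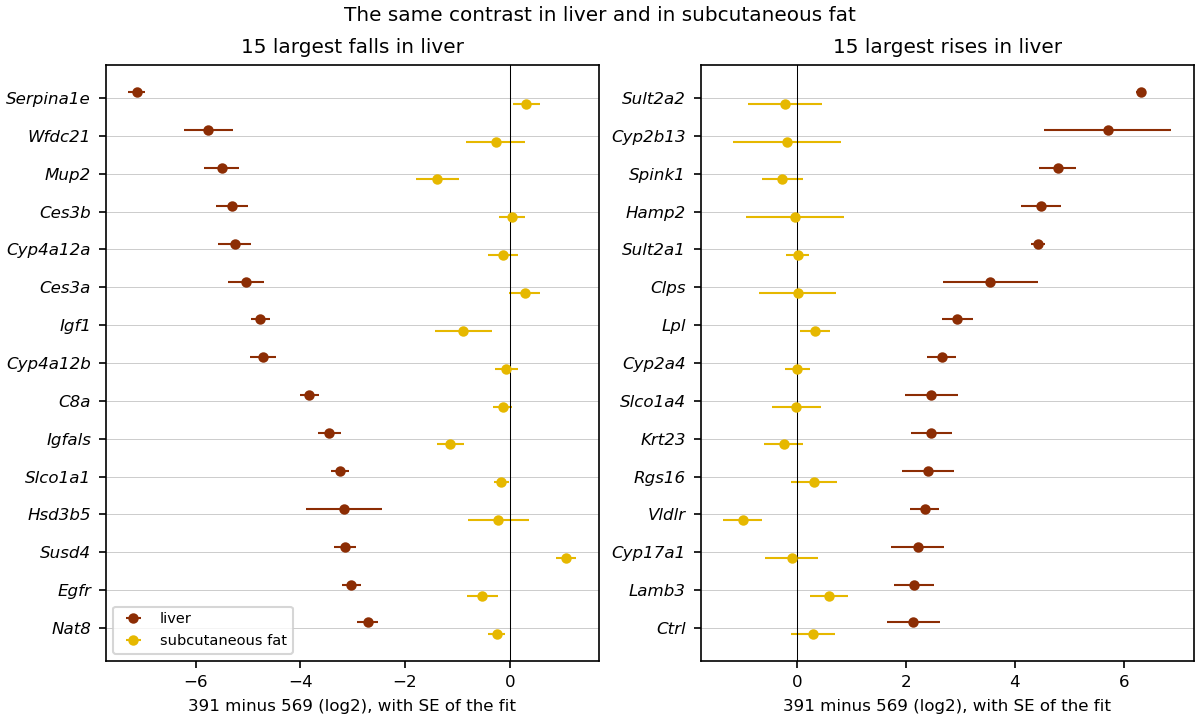
Differences between 391 and 569 (log2, with the SE of the fit) in liver (brown) and subcutaneous fat (yellow) for the 15 largest falls (left) and rises (right) in liver; the liver value of Sult2a2 is its lower bound of 6.31. Among these genes the fat differences run from -1.38 for Mup2 to 1.07 for Susd4, with Igfals at -1.13, Vldlr at -0.999 and Igf1 at -0.89.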

How the data were processed

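Per the labels, total RNA of frozen tissue was biotin-labelled and hybridised to Illumina bead arrays. The deposited values are ratios of each probe to its median over the 15 arrays of a tissue, as the values show, while how the authors corrected background and normalized was not given in the sources used here. Linear models were fitted to the log2 of the deposited ratios (limma 3.58.1 under R 4.3.3, moderated two-sided tests, Benjamini-Hochberg over all probes), with 5 liver groups in 1 fit and both tissues in 1 fit for the tissue contrast. The method was tested on simulated data. Of the probes, 32794 had 1 symbol in the platform annotation, 55 had several and 13794 had none. Of the probes with 1 symbol, 32722 had a gene identifier found in RefSeq (GRCm38.p6), and the symbol given there was used. A gene is represented by its probe with the largest SD over the 9 WT, Box1 and KO liver arrays. The rule named 8 axis genes always, up to 15 non-overlapping called genes each way, up to 5 members of each of 20 pathway and 10 marker lists, and up to 5 genes each way in the step and tissue contrasts. The comparison, lists and rules were chosen with earlier results of these data known. Replicate numbers follow accession order and pair no samples. The number of arrays limits the precision.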

Additional observations from a re-analysis of the deposited data

Results flagged for a closer look

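For 30 named genes the 391 minus 569 difference in liver was itself different from that in fat in a fit of all 30 arrays (limma, adjusted p under 0.05), and the 30 were also called without fat 569 array 3, the fat array that stood apart. Over all probes 303 were called (0.65%). Many of the named genes were chosen for their liver difference, which is part of this contrast, and some for the contrast itself. Their calls are therefore no separate support. Values are the liver difference minus the fat difference on the log2 scale, with 3 arrays a group, and a fat ratio near 1 may belong to an absent transcript. Among genes of the growth hormone axis the contrast was -3.88 for Igf1 and -2.31 for Igfals. Among male-biased and related falls it was -7.45 for Serpina1e, -5.48 for Wfdc21, -5.35 for Ces3b, -5.32 for Ces3a, -5.13 for Cyp4a12a, -4.65 for Cyp4a12b, -4.22 for Susd4, -4.12 for Mup2, -3.08 for Slco1a1, -2.51 for Egfr, -2.47 for Nat8 and -2.31 for Cyp7b1. In the membrane attack complex it was -3.69 for C8a, -1.96 for C6, -1.94 for C8b and -1.84 for C9. Among female-biased rises it was 7.12 for Sult2a2, whose 569 livers lie at the lowest printed ratio so that this fitted value is no bound, 5.05 for Spink1, 4.41 for Sult2a1 and 2.65 for Cyp2a4. For lipid uptake it was 3.34 for Vldlr and 2.61 for Lpl. The remaining contrasts were 4.40 for the tubulin Tuba8, 2.71 for Krt23, 1.37 for Ndufb7, 1.16 for Slc51b, 0.95 for Cox4i1 and 0.85 for Nr1i2. Tuba8 read 3.01, 2.6 and 1 in 391 livers, against 0.65, 0.61 and 0.43 in 569 livers, and its call in liver was lost in 4 of the 6 fits that left out 1 array.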

How the results depend on the processing

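No signal over background is known for these ratios, so dim probes could not be set aside, and 3 arrays a group limit every estimate. Genes named only through the marker lists are not among the named genes counted in this section. Of 79 named genes called in 391 against 569 livers, 37 kept their call in every alternative that tested them and 42 lost it in at least 1. There were 14 alternatives, and 13 for Sult2a2, Spink1, Hamp2 and Sult2a1, whose probes the low-ratio filter left out. In at least 1 of the 6 fits that left out 1 array 24 lost their call, and 0 changed sign on the same probe. Fitting the 6 arrays alone lost 36 of the 79 calls, with fewer samples for the spread, quantile normalization 13 and leaving out 391 arrays 2 and 3 18; the low-ratio filter, which kept 46638 probes, tested 75 of them and lost 0.

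For probes higher in 391 livers, quantile normalization gave 807, the 6 arrays alone 462, the 2-fold minimum 182, and leaving out 1 array 600 to 2285. For probes lower, the 6 arrays alone gave 76, the 2-fold minimum 73, and leaving out 1 array 97 to 185. Probes whose step differed from the 569 minus WT step numbered 65 after quantile normalization, 1130 without 391 arrays 2 and 3, and 32 to 754 without 1 array. Probes whose difference differed between liver and fat numbered 101 to 1331 without 1 array. Calls shared with Box1 against WT numbered 190 in separate fits and 359 from 1 fit of 15 arrays. Leaving out WT or fat arrays, the single fit, and quantile normalization or centring of the lists were chosen after seeing the data. The cause of these shifts was not tested.

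Of 45 other probes of 29 called named genes, 18 were called the same way, 16 had the same sign without a call and 11 the opposite sign, with 0 of the 11 called: Socs2 0.21, Lpl -0.012, Vldlr -0.25 and -0.11, Pparg -0.22, Acaca -0.13 and -0.067, Acly -0.11, Gstt3 -0.0063, Cry2 -0.15 and Tuba8 -0.022. Replicate numbers follow accession order. No paired analysis was possible because no label pairs the samples.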

Other observations

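The 10 marker lists gave few calls outside the pancreatic one. Over all genes, 6.56% were called higher and 0.541% lower. Of 13 endothelial markers 2 rose in 391 against 569 livers, Pecam1 (0.52, SE 0.134, adjusted p = 0.039) and Stab2 (0.47, SE 0.113, adjusted p = 0.027), both named after their values were seen. After quantile normalization 0 of them were called, while the higher calls over all probes went from 2010 to 807. Of 13 stellate cell and fibroblast markers 2 rose: Pdgfra, a growth factor receptor, read 1.56, 1.52 and 1.56 in 391 livers, against 0.81, 0.51 and 0.65 in 569 livers (1.26, SE 0.164, adjusted p = 0.00078), and Reln rose by 0.88 (SE 0.181, adjusted p = 0.012). A further Pdgfra probe differed by -0.083 and the further Reln probes by -0.043 to 0.14, and none of these was called. Of 12 bile duct markers 1 rose, the keratin Krt23. Of 13 macrophage, 12 lymphocyte and 8 adipocyte markers 0 were called in limma (unadjusted p under 0.05 for 0, 1 and 0). Of 5 erythroid markers 1 fell, Alas2, the first enzyme of haem synthesis in red cells (-0.91, SE 0.23, adjusted p = 0.034), and the globin Hbb-b2 read 0.98, 6.68 and 0.96 in 391 livers, against 1.05, 7.24 and 0.99 in 569 livers. Of 11 hepatocyte markers, Alb rose by 0.62 (SE 0.154, adjusted p = 0.032) and Serpina1a, named after its values were seen, fell by 0.78 (SE 0.186, adjusted p = 0.027).

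Of 27 cell cycle genes 0 were called (4 with an unadjusted p under 0.05). The cell cycle inhibitor Cdkn1a read 3.33, 6.33 and 1.85 in 391 livers, against 2.31, 1 and 0.28 in 569 livers (1.97, SE 0.575, adjusted p = 0.067). It was higher in 391 livers than in the KO livers of the same slide, which read 0.32, 0.39 and 0.27 (3.39, adjusted p = 0.029). Of 17 clock genes 1 rose, the repressor Cry2 (0.76, SE 0.148, adjusted p = 0.009), whose call was lost without 569 array 2. The median of the clock genes was 0.30, and 0.70 without 391 arrays 2 and 3. Of 25 interferon and antigen presentation genes 1 fell, Ifi27 (-1.02, SE 0.269, adjusted p = 0.042), and its call was lost on leaving out any one of the 6 arrays.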
